A study of Mus musculus with 2 samples.

Results

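The proteasome genes analysed here encode the standard subunits of the cell's main protein-degrading machine, together with its activators, its inhibitor and the chaperones that assemble it. Members were the genes whose current symbol is Psma, Psmb, Psmc, Psmd, Psme, Psmf or Psmg followed by a number, read by probe sets that the platform annotation assigns to that gene alone. The interferon-inducible subunits Psmb8, Psmb9 and Psmb10 were left out. This gave 44 genes with 96 probe sets, of 18193 genes measured. Psme2, which encodes the partner of Psme1, is not among them because its probe set also names Psme2b.

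RNA came from peritoneal macrophages of C57BL/6J mice 8 weeks old, with no genetic change named in the labels, and was hybridised to Affymetrix arrays that read the 3' end of transcripts, 1 for each group. The first group was resident macrophages of untreated mice (the resident array). The second was macrophages (the elicited array) collected 3 days after injection of 1 mL of 3% thioglycollate into the peritoneal cavity, a sterile irritant that recruits leukocytes. Both preparations adhered to plastic for 2 h, per the labels' protocols, whereas the series' design text speaks of culture overnight. The sources used here give neither the number of mice behind an array nor a purity check of the adherent cells. With 1 array per group there was no replicate, so no difference was tested and no value carries a replicate error.

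As background, proteins tagged with ubiquitin chains are bound by a cap, unfolded by its ring of ATPases and threaded into a barrel, where proteolytic sites on the inner beta rings cut them into peptides. The outer alpha rings form the gate of the barrel. In cells exposed to interferon-gamma the catalytic beta subunits can be replaced by inducible counterparts, which favours peptides suited to MHC class I presentation, and macrophages are among the cells in which both forms occur.

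Signals are the deposited linear intensities, and each gene was read by the brightest of its probe sets (highest mean of the log2 signals). Probe sets differ in how strongly they hybridise, so signals are compared between the arrays and not between genes. Ratios are elicited over resident signal. A floor of 82.2, the 95th percentile of gene families thought to be silent in macrophages such as olfactory receptors, stood for background, and a signal over it is called above background. Of the 44 genes, 42 were above it on both arrays. Psma8, the testis form of an alpha subunit, was above it on the elicited array alone (34.9 and 94.6), and Psmb11, the thymus form of a catalytic subunit, on neither (4.57 and 7.30).

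By the brightest probe set of each gene, proteasome transcripts were higher on the elicited array almost throughout, mostly by a modest amount. Of the 42 genes above background on both arrays, 40 had a higher signal there, against 48.7% of the 9820 genes that met the same condition. With the arrays scaled on spiked controls the number was 29 of 42, but that scaling lowered the ratios of all genes. The median log2 ratio on it was 0.16 for the proteasome genes and -0.35 for all genes above the floor. The other 26 probe sets of proteasome genes above background on both arrays were less uniform on the deposited scale. Of these, 15 were higher and 11 lower, with a median log2 ratio of 0.16. The median log2 ratio of the 42 genes on the deposited scale was 0.51, and that of the 9820 genes was -0.02. The quartiles of the 42 log2 ratios were 0.30 and 0.75, a range of 0.44, while the interquartile range of all genes was 0.94. Spread could be measured only between probe sets of one gene, with an SD of 0.48 on the log2 scale over 4465 genes, which covers neither animals nor cultures. A ratio above this SD was found in 23 of the 42 genes and in 22.4% of all genes above background on both arrays. At the 2-fold threshold, 6 of the 43 genes above the floor on at least 1 array were higher, beside 8.04% of 11499 genes, and none was lower, beside 11.8%. The 6 were Psmd8, Psmb6, Psmb7, Psmd9, Psmc4 and Psmc2.

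**Figure D1:**
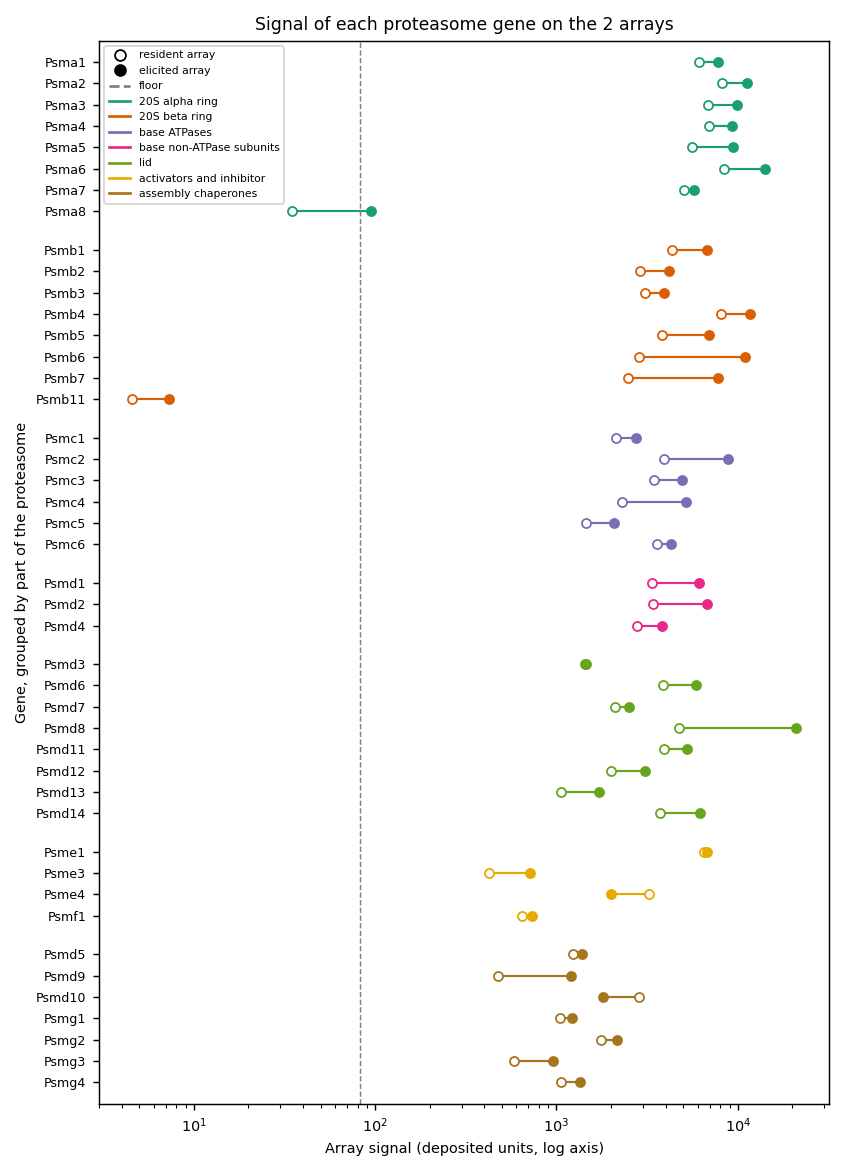
Signal of each proteasome gene on the resident array (open circles) and the elicited array (filled circles), on a log axis in deposited units, grouped and coloured by part of the proteasome; the dashed line is the floor of 82.2. The filled circle lies to the right in every gene but Psme4 and Psmd10, and the longest lines above the floor belong to Psmd8 (4767 and 20983), Psmb6 (2849 and 10988) and Psmb7 (2494 and 7731).

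The alpha ring gates the barrel and docks the caps. All 7 of its genes above background on both arrays were higher on the elicited array, with log2 ratios from 0.17 to 0.75, and none reached 2-fold. Under other scalings Psma7 turned below 0 with quantile, loess and the spiked controls and Psma1 with the controls, and by the median of probe sets Psma1 and Psma3 did. Psma5 had the highest ratio, with signals of 5604 and 9447 (1.69-fold), while its second bright probe set read 3323 and 4540 (1.37-fold). Psma6 followed with 8415 and 14063 (1.67-fold). Psma7 had the lowest, with 5063 and 5715 (1.13-fold). Psma1, Psma2, Psma3 and Psma4 lay close together between these, at log2 ratios of 0.34, 0.45, 0.53 and 0.42.

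The beta ring carries the proteolytic sites, and its genes differed more among themselves. Psmb6, which encodes the caspase-like catalytic subunit, had signals of 2849 and 10988 (3.86-fold higher). Psmb7, of the trypsin-like subunit, had 2494 and 7731 (3.10-fold). Psmb5, of the chymotrypsin-like subunit that is the main target of proteasome inhibitor drugs, had 3805 and 6971 (1.83-fold). These 3 catalytic genes had the 3 highest ratios of the ring. The structural beta genes Psmb1, Psmb2, Psmb3 and Psmb4 had log2 ratios of 0.63, 0.51, 0.35 and 0.53. Psmb4 had signals of 8045 and 11626 (1.45-fold). Psmb3 was the lowest, with signals of 3084 and 3932 (1.28-fold). Psmb5, Psmb6 and Psmb7 were each read by 1 probe set, so their ratios have no second reading. The RefSeq gene table also lists 6 pseudogene copies of proteasome genes, namely Psma5-ps, Psmb5-ps, Psmb6-ps, Psmb6-ps2, Psmb7-ps1 and Psmb7-ps2. Whether these copies hybridise to the same probe sets was not tested.

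The interferon-inducible counterparts of the 3 catalytic genes differed little between the arrays. Psmb9, which takes the place of Psmb6, had signals of 2353 and 2216 and a log2 ratio of -0.09. Psmb10, which takes the place of Psmb7, had 4745 and 4687 (-0.02). Psmb8, the counterpart of Psmb5, had 4239 and 5172 (0.29, and -0.06 on the spiked controls). The log2 ratio of the constitutive gene was the higher one in each of the 3 pairs, and these differences could not be tested with 1 array per group.

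**Figure D2:**
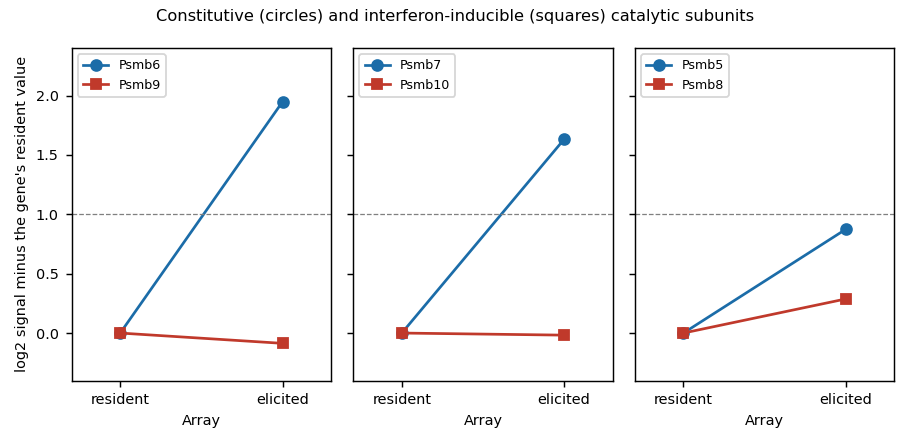
Log2 signal on each array minus the gene's own value on the resident array, for the 3 constitutive catalytic genes (circles) and their interferon-inducible counterparts (squares); the dashed line is 2-fold. Psmb6, Psmb7 and Psmb5 reach 1.95, 1.63 and 0.87 on the elicited array, and Psmb9, Psmb10 and Psmb8 reach -0.09, -0.02 and 0.29.

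The promoters of several of these genes are shown because proteasome genes are known targets of the transcription factors Nfe2l1 and Nfe2l2, which bind the antioxidant response element. Windows of 300 bases (250 before the start site to 50 from it onward) were taken from the RefSeq promoter table for GRCm38.p6, which matched 36 of the 44 genes. Psma8, Psmb1, Psmb2, Psmb7, Psmc3, Psmd3, Psmd7 and Psmg2 had no entry. Capitals mark matches to the core of the element, TGACNNNGC, on either strand. Those of Psmb5 (chr14:54617946-54618245, minus strand), Psmb6 (chr11:70525107-70525406, plus strand) and Psmd9 (chr5:123227940-123228239, plus strand) hold 1 match each, which begins 47, 9 and 31 bases before the start site. That of Psmd8 (chr7:29180624-29180923, minus strand), the gene with the highest ratio, holds none. That of Psme4 (chr11:30771525-30771824, plus strand), the gene with the lowest ratio, holds 1 match on the opposite strand.
Psmb5: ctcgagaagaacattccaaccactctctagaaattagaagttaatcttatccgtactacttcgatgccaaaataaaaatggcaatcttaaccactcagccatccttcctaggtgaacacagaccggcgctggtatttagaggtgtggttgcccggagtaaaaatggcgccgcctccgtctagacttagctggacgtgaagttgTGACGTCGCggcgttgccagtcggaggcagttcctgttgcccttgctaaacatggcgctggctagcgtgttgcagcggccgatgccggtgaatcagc
Psmb6: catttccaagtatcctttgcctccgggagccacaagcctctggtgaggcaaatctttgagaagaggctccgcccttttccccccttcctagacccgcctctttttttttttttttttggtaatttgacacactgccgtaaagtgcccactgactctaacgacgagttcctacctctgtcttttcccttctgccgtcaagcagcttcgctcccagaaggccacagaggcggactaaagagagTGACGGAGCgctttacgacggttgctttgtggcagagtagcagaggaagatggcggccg
Psmd9: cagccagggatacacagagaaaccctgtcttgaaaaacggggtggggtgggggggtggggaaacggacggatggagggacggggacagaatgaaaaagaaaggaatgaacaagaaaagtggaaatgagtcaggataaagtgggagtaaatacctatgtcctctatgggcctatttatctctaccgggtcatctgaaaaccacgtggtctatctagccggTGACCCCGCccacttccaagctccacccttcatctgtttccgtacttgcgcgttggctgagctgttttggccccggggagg
Psmd8: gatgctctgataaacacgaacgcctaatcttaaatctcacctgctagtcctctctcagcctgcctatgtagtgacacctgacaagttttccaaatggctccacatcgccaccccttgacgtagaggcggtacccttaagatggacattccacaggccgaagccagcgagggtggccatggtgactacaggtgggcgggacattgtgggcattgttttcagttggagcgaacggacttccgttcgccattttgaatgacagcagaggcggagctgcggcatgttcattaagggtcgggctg
Psme4: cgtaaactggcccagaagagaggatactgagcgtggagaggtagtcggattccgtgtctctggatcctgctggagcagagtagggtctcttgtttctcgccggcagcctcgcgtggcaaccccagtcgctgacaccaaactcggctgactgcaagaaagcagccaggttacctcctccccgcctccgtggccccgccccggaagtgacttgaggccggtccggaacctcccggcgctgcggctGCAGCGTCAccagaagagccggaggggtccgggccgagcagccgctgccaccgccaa
The core was found in 6 of the 36 genes (16.7%), namely Psmb5, Psmb6, Psmd9, Psme4, Psmc6 and Psmd12, and in 14.0% of the 27025 genes in the table. The NF-Y box CCAAT, a common promoter element that shared no base with the core in these windows, was found in 13 of the 36 genes (36.1%) and in 41.1% of all genes. The members' shares of both motifs were thus close to those of all genes. A match describes letters in the window and not a bound site.

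The base of the cap unfolds the substrate. Its 6 ATPase genes were all higher on the elicited array, with a median log2 ratio of 0.51, though Psmc6 turned to -0.10 on the spiked controls. Psmc4 had signals of 2286 and 5160 (2.26-fold), and its second probe set read 1.66-fold (1794 and 2980). Psmc2 had 3926 and 8814 (2.25-fold) by a probe set of the kind that can cross-hybridise. Its other probe set above the floor read 4185 and 5483 (1.31-fold), so the 2-fold call of Psmc2 rests on 1 probe set. Psmc3, Psmc5 and Psmc1 had log2 ratios of 0.50, 0.51 and 0.36. Psmc6 was the lowest at 3598 and 4277 (1.19-fold), and its other probe sets pointed the other way (1274 and 1019, 315 and 165).

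The scaffold and ubiquitin receptor genes of the base had a median log2 ratio of 0.86, the highest of the 7 parts, over 3 genes. Psmd2, a scaffold that also docks ubiquitin-like proteins, had signals of 3402 and 6725 and at 1.98-fold lay just under the threshold. Psmd1, the other large scaffold, had 3358 and 6096 (1.82-fold). Psmd4, the ubiquitin receptor, had 2795 and 3818 (1.37-fold), and a second probe set read nearly the same (2368 and 3120). By their brightest probe sets, all 3 genes were thus higher on the elicited array.

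The lid removes ubiquitin chains from the substrate. All 8 of its genes had a log2 ratio above 0, with a median of 0.62, but Psmd3 and Psmd7 turned below 0 when scaled on the spiked controls. Psmd3 differed by only 1.01-fold (1432 and 1446). Psmd8 had the highest ratio of all proteasome genes, with signals of 4767 and 20983 (4.40-fold), from 1 probe set. Psmd14, the deubiquitinating enzyme of the lid, had 3713 and 6147 (1.66-fold). Psmd13, Psmd12 and Psmd6 had log2 ratios of 0.69, 0.62 and 0.61, and Psmd11 and Psmd7 of 0.42 and 0.26. Psmd8 apart, the lid genes stayed within 2-fold. The 5 probe sets of Psmd11 above background on both arrays ran from -0.25 to 0.77.

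The activators that open the barrel without the cap and the inhibitor had no common direction, with a median log2 ratio of 0.11. That median became -0.24 on the spiked controls, where the median of all genes was -0.35. Psme1, an interferon-inducible subunit of the PA28 ring, had signals of 6542 and 6739 (1.03-fold) and turned below 0 with quantile, loess and the spiked controls. The probe set that names both Psme2b and Psme2 was likewise nearly level, at 4750 and 4964. Psme3, of the nuclear PA28 form, had 422 and 710 (1.68-fold), while its second probe set read 252 and 242. Psmf1, an inhibitor of the 20S barrel, had 648 and 732 (1.13-fold), and was below 0 on the controls. Psme4, which encodes the large activator PA200, was the lowest of all proteasome genes, with 3232 and 1994 (1.62-fold lower). All 4 of its probe sets above background on both arrays were lower on the elicited array, with log2 ratios from -1.02 to -0.51. Psme4 was the one gene with 2 or more such probe sets in which all of them were lower.

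The assembly chaperones, which build the rings and the base but leave the finished particle, had a median log2 ratio of 0.29 over 7 genes. That median became -0.06 on the spiked controls, where the median of all genes was -0.35. Psmd9, a chaperone of the base, had signals of 478 and 1196 (2.50-fold). This rests on 1 of its 3 probe sets. The other 2 were below the floor on both arrays (57.9 and 34.8, 74.3 and 43.3). Psmd10, also called gankyrin, is another chaperone of the base and went the other way, with 2859 and 1810 (1.58-fold lower, 1 probe set). Psmd5, the third of these base chaperones here, had 1233 and 1387 (1.13-fold), and was below 0 on the controls. Chaperones of the same step thus pointed in both directions. The alpha ring chaperone genes Psmg1, Psmg2, Psmg3 and Psmg4 had log2 ratios of 0.22, 0.29, 0.71 and 0.33, and all but Psmg3 turned below 0 on the controls.

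Probe sets of one gene agreed for most genes that had more than 1. In 18 genes, 2 or more probe sets exceeded the floor on each array. Of these genes, 11 had all of them higher on the elicited array, 1 had all lower and 6 (Psma1, Psma6, Psmc6, Psmd11, Psme3 and Psmf1) had both. The SD between probe sets of these 18 genes was 0.47 on the log2 scale. Dim probe sets were the ones that ran the other way more often. Of the 9 with a signal under 500 on both arrays, 3 were higher and 6 lower. Of the other 59, 52 were higher and 7 lower. All named dim probe sets on the arrays leaned the same way, with 2297 higher and 4240 lower. Of all named probe sets with 500 or more on at least 1 array, 5163 were higher and 5472 lower. Psma6 showed the widest gap: its 2 bright probe sets had log2 ratios of 0.74 and 0.38, and a dim one, at 370 and 147, had -1.34. A further 9 probe sets exceeded the floor in resident RNA alone and 2 in elicited RNA alone. The 9 belong to Psma1, Psma3, Psmb1, Psmc2, Psmd4, Psmd7, Psmd13, Psme4 and Psmf1. Psmb1, Psmc2, Psmd4 and Psmd13 are among the 11 genes counted as all higher, so that count leaves out a lower reading in each. Of all probe sets on the arrays, 51.9% exceeded it in resident RNA and 46.1% in elicited RNA.

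**Figure D3:**
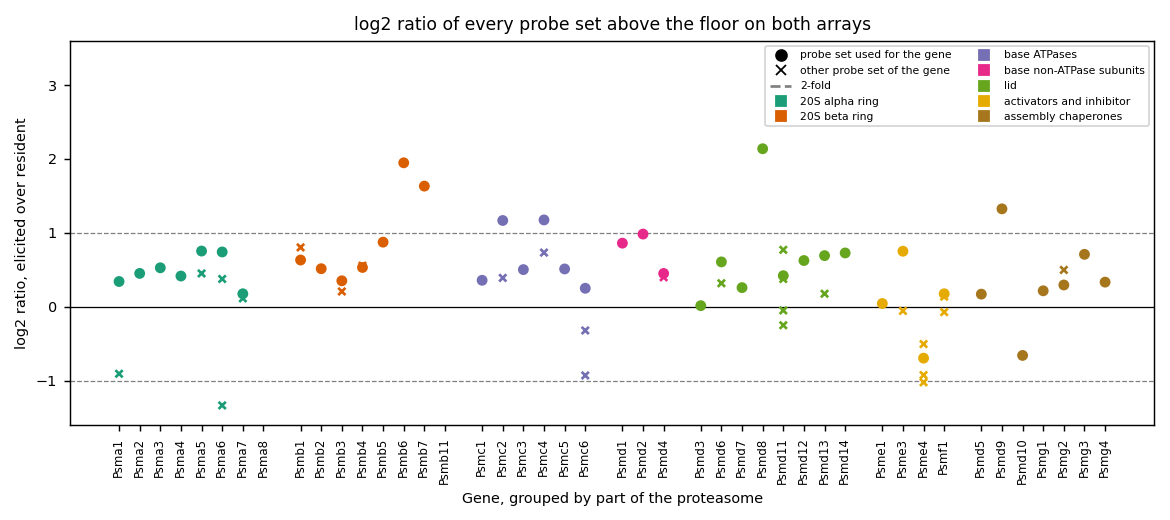
Log2 ratio of elicited over resident signal for each of the 68 probe sets of proteasome genes above background on both arrays, grouped and coloured by part; circles are the probe sets used for the gene, crosses its other probe sets, and dashed lines mark 2-fold. Of the 68, 55 lie above 0, and the crosses furthest below it belong to Psma6 (-1.34), Psme4 (-1.02 and -0.93), Psmc6 (-0.93) and Psma1 (-0.91).

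The size of the shift has to be read against signal, because bright genes as a whole had higher ratios on the elicited array. When the 9820 genes above background on both arrays were divided into deciles by mean signal, the median log2 ratio was -0.24 in the third and 0.41 in the brightest. Of the 42 proteasome genes, 29 lay in the 2 brightest deciles. In those, 28 of the 29 were higher on the elicited array, beside 69.2% of 1964 genes, and their median log2 ratio was 0.53 beside 0.32. At 2-fold the numbers were 5 of the 29 and 11.6%. Over all deciles, 37 of the 42 genes had a ratio above the median of their own decile, and Psma1, Psma7, Psme1, Psme4 and Psmd10 were below it; the median distance was 0.27. The alpha ring genes Psma2 and Psma4 were 0.04 and 0.01 above it. The distances of Psma1 and Psma7 were -0.07 and -0.23. Psmd8, Psmb6, Psmd9 and Psmb7 were 1.73, 1.54, 1.49 and 1.42 above it. Those of Psme4 and Psmd10 were -0.91 and -0.74.

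**Figure D4:**
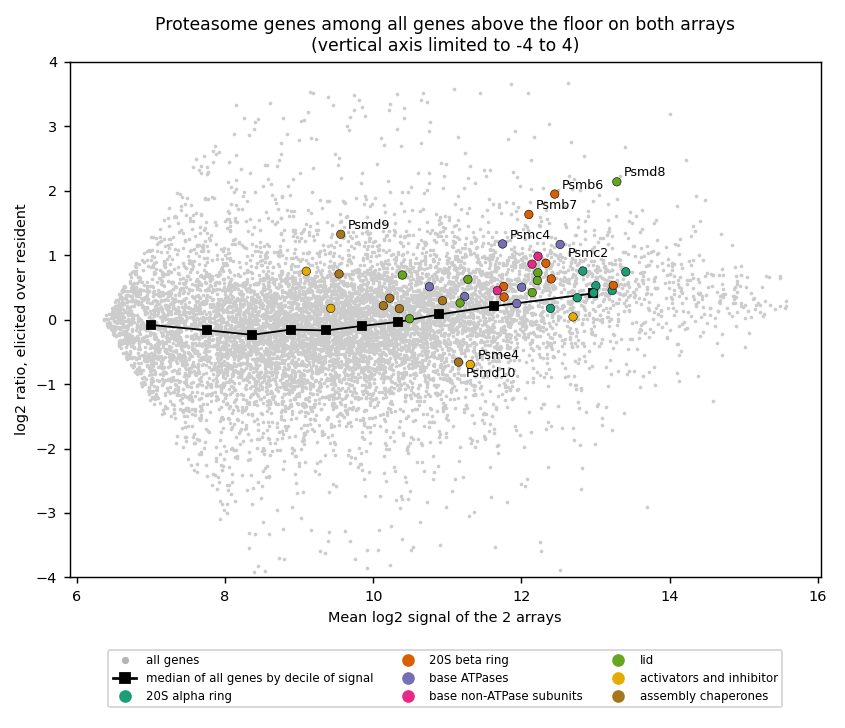
Log2 ratio of elicited over resident signal against mean log2 signal for all 9820 genes that exceeded the floor on each array (grey), with the 42 proteasome genes coloured by part and the median of all genes in each decile of signal as black squares; 40 genes lie outside the vertical range. The proteasome genes sit mostly on the bright side, 37 of them above the black line, with Psmd8, Psmb6, Psmb7 and Psmd9 furthest above it and Psme4 and Psmd10 furthest below.

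The direction of small differences also depended on how the arrays were scaled. The median log2 ratio of the proteasome genes was 0.82 when the arrays were given equal medians over probe sets that exceeded the floor on each, 0.36 after quantile normalization, 0.32 after removal of the loess trend with signal, and 0.16 when the spiked hybridisation controls were set equal. The medians of all genes under the same scalings were 0.25, 0.16, 0.07 and -0.35. The number of genes at least 2-fold higher was 14 with equal medians, 6 with quantile, 5 with loess and 3 on the controls (Psmd8, Psmb6 and Psmb7). The shares of all genes at least 2-fold higher were 14.2%, 11.1%, 9.28% and 4.68% under the same scalings. On the controls, Psme4 and Psmd10 were also past 2-fold, on the lower side, beside 19.8% of all genes. The alpha ring lay below the median of all genes with quantile normalization (0.11 beside 0.16), and the activators and inhibitor did so with quantile (0.08) and loess (0.05 beside 0.07). The medians of the base ATPases, the base scaffold and receptor genes, the beta ring, the lid and the chaperones were above that of all genes under all 5 scalings.

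**Figure D5:**
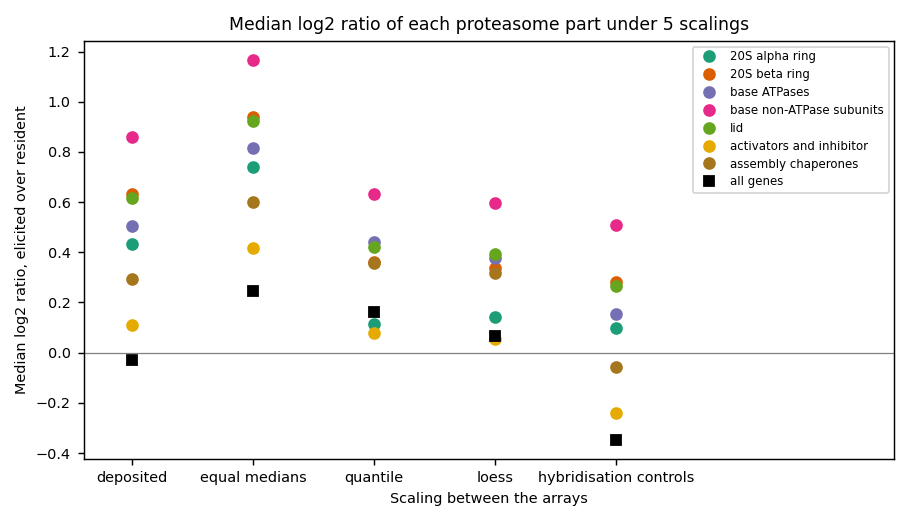
Median log2 ratio of elicited over resident signal in each of the 7 parts of the proteasome (circles) and over all genes above the floor (black squares), for the deposited values and 4 other scalings of the arrays. The base scaffold and receptor genes are the highest part under each scaling, from 0.51 to 1.17, and the activators and inhibitor the lowest, from -0.24 to 0.42.

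Genes that work beside the proteasome were described from a separate list of 30, of which 21 were above the floor and 9 had no probe set naming them alone. Of the 21, 10 were higher and 11 lower on the elicited array, with a median log2 ratio of -0.02. Of all 11499 genes above the floor, 48.1% were higher. Among the 21, 1 gene was at least 2-fold higher, beside 8.04% of all genes. That gene was Zfand2a, a stress-induced partner of the proteasome cap, with signals of 1790 and 6198 (3.46-fold), and its 3 probe sets had log2 ratios between 1.79 and 2.51. Pomp, the maturation chaperone of the barrel, had 7135 and 12925 (1.81-fold), and Sem1, a small lid subunit outside the Psm naming, 12040 and 16917 (1.41-fold). The cap-associated deubiquitinases Usp14 and Uchl5 had log2 ratios of 0.72 and 0.47, though the 4 probe sets of Usp14 ran from -1.32 to 0.77. Ecpas, an adaptor that binds cap and barrel, had the lowest ratio of the list, with 1038 and 692 (log2 ratio of -0.59). The transcription factor genes Nfe2l1 (1103 and 1054) and Nfe2l2 (9612 and 8974) were nearly level by their brightest probe sets. The 2 probe sets of Nfe2l2 had log2 ratios of -0.10 and 0.38. Also nearly level were Vcp, the unfoldase that feeds the proteasome (6566 and 6751), and the shuttle genes Ubqln1 and Ubqln2, with log2 ratios of -0.08 and -0.03. The genes of this list thus had no common direction, and their share of higher signals was close to that of all genes.

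Both arrays carried all 8 macrophage markers examined, with summed resident and elicited signals of 141135 and 137236. Their median log2 ratio was -0.51: Itgam (9059 and 3027) and Cd14 (17665 and 6481) had lower elicited signals by more than 2-fold, and Fcgr1 (1344 and 3430) a higher one. Other cell types differed between the preparations. B cell markers summed to 23389 and 4832 (7 of 7 above the floor in resident and 6 in elicited RNA). Of these 7, 5 were at least 2-fold lower, the median log2 ratio was -4.58, and Cd22, which was higher (2269 and 4078), made up most of the elicited sum. Mesothelial and fibroblast markers summed to 730.0 and 16446 (4 and 11 of 12, with Msln on neither). Dendritic cell markers summed to 1641 and 335 (4 and 0 of 7, with Flt3, Xcr1 and Itgae on neither) and mast cell markers to 2484 and 141 (5 and 0 of 6, with Ms4a2 on neither). T cell markers summed to 832 and 267 (4 and 1 of 6, with Cd3e and Cd4 on neither). Neutrophil markers summed to 3842 and 4907, with S100a8 alone above the floor and S100a9, Mpo, Elane, Ltf, Ngp and Cxcr2 on neither array. Of 4 measured markers of cycling cells, 3 were 2-fold or more above and 1 was 2-fold or more below their resident signal on the elicited array, with sums of 1379 and 1595. The part of these cells in the proteasome ratios was not tested, and in such bulk RNA more cells of a type and more RNA per cell cannot be told apart. The 3' to 5' signal ratio of beta-actin was 1.19 for resident and 1.22 for elicited RNA.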

How the data were processed

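Linear signal intensities of 45101 probe sets on 2 arrays, 1 per group, were used as deposited. The authors computed them with MAS5, according to the submitters' processing notes; its version, target and detection calls: not given in the sources used here. Trimming 2% of probe sets at each end left a mean of 500.0 on each array, so the intensities share 1 trimmed mean. The platform annotation named the probe sets, and older symbols were replaced through gene IDs in the RefSeq table for GRCm38.p6 (34754 of 34958 with 1 symbol matched). Another 932 named several genes and stayed out, as did array controls.

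The floor came from 126 probe sets of olfactory, vomeronasal and taste receptor and keratin-associated protein genes. Signals below it were raised to it, and log2 ratios were taken as elicited minus resident. Of 18193 genes, 11499 were above it on at least 1 array. With 1 array per group no test was run, and precision is limited by the number of arrays. Members and lists were chosen with earlier results of these data known. Both signals are given for genes at least 2-fold apart, for the extremes and the brightest gene of each part, and for genes at the floor or whose probe sets lay more than 0.5 (log2) on both sides of 0; further genes were named to account for every member. Alternatives changed scaling, floor, probe set choice and filter; scaling on 9 spiked control probe sets was chosen after seeing the data. The scripts, tested on simulated data, ran in Python 3.11.15 with statsmodels 0.14.6, pandas 2.3.3 and numpy 2.4.6.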

Additional observations from a re-analysis of the deposited data

How the results depend on the processing

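Across 11 settings, the median log2 ratio of the proteasome genes stayed above 0 (0.16 to 0.82) and above that of all genes, by 0.20 to 0.57. Of 43 genes, 28 kept a higher and 2 (Psme4 and Psmd10) a lower elicited signal under all settings that gave a value. Psmd8, Psmb6 and Psmb7 were at least 2-fold higher under all 11 settings. Each was read by 1 probe set far above the floor, so only the choice of scaling could have changed this. Psmd9 was under 2-fold on the spiked controls (0.97 on the log2 scale), Psmc4 with loess, on the controls and by the median of its probe sets (0.97, 0.82 and 0.95), and Psmc2 under 5 alternatives, down to 0.39.

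Scaling to equal medians gave 14 proteasome genes and 4 genes of the linked list at least 2-fold higher, beside 14.2% of all genes higher and 7.40% lower. The spiked controls were higher on the elicited array in 9 of 9 probe sets, by a median of 1.27-fold. Scaling on these controls gave 3 proteasome genes higher and 2 lower, beside 4.68% of all genes higher and 19.8% lower. Without a filter on dim genes, 5.08% of all genes were higher and 7.46% lower. The median over probe sets turned Psma1, Psma3, Psmc6 and Psmd7 to -0.74, -0.23, -0.32 and -0.64, and leaving out probe sets that can cross-hybridise turned Psmd11 to -0.25. No paired analysis was possible because each group had 1 array. Signal over background limits what can be said of Psma8 and Psmb11.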
